A study of Gallus gallus with 6 samples.

Results

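Lamins and their partners at the inner nuclear membrane were described in chicken primary myoblasts, the precursor cells of skeletal muscle, cultured from leg muscle. The set holds 8 of the 24433 genes in the table of values: the lamin genes LMNA, LMNB1 and LMNB2, the lamin B receptor gene LBR, the LEM-domain gene TMPO, the chromatin linker gene BANF1, and the SUN-domain genes SUN1 and SUN2. They were chosen by symbol, as genes of one structure, after values of this same comparison had been seen, among them the fall of LMNB2. Their differences between the groups are therefore given as a description and support nothing. Where they are called lower or higher in a fit across all genes, no p-value is printed and the call supports nothing either. Of the 8, 7 were matched by symbol. The row of LMNA has no such symbol in the table and was matched by its gene identifier, 396224, and its description, lamin A. In 3 libraries the myoblasts overexpressed ANKRD9, the gene of an ankyrin repeat protein that serves Cullin-RING ubiquitin ligases, and in 3 control libraries they carried the empty vector pcDNA3.1. No other genetic change or agent is named for either group, and the labels give neither the time after transfection nor the share of cells that took up the plasmid. The study asked how ANKRD9 affects the metabolism of inosine monophosphate, and polyadenylated RNA was sequenced.

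The nuclear lamina is a meshwork of intermediate filaments that lines the inner nuclear membrane, gives the nucleus its stiffness and holds silent chromatin at the nuclear edge. B-type lamins keep a farnesyl lipid anchor and stay close to the membrane, whereas lamin A loses its anchor during maturation and is also found inside the nucleus. LBR and the LEM-domain proteins hold chromatin to the membrane, BANF1 bridges DNA and LEM domains, and SUN proteins pass through the inner membrane to bind nesprins, which link the nucleus to the cytoskeleton. In muscle this linkage is known to place nuclei along the fibre, and defects of lamin A cause muscular dystrophy in humans.

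Values are FPKM, the fragments of a gene scaled to its length and to a size set for the library. That size lay slightly above the summed reads in each ANKRD9 library and slightly below them in each vector library. The median log2 difference over all genes tested was -0.01 in FPKM and 0.02 in a fit on reads. Behind the FPKM stood 16158627 to 26310089 reads in a library. ANKRD9 itself stood at 90.5, 104 and 101 FPKM in the libraries of the overexpressing cells, against 9.46, 8.16 and 10.1 FPKM in the vector libraries, so the libraries bore out their labels. Its log2 difference was 3.29 ± 0.08 (SE; limma, adjusted p = 5.44e-06), and a two-sided exact permutation test returned p = 0.1, the lowest that groups of 3 and 3 can reach. The myoblast markers MYF5, MYOD1, PAX7, DES and CDH15 were read in every library, and their summed level ran from 778 to 863 FPKM with ANKRD9, against from 771 to 813 FPKM with the vector. Within that sum the members differed: MYOD1 stood at 116 ± 11.3 FPKM with ANKRD9, against 199 ± 6.77 FPKM with the vector, and was called lower (limma, adjusted p = 3.12e-04), as was PAX7 (adjusted p = 0.0154), while MYF5 and DES were called higher (adjusted p = 0.00517 and 0.00909) and CDH15 did not pass. The labels do not name separate cultures for the libraries, so the p-values reflect the spread between these libraries alone, and that spread may be technical.

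Of the 8 genes, LMNB2, LMNB1, TMPO, LBR and SUN1 were lower in the ANKRD9 libraries and SUN2 was higher, at an adjusted p under 0.05 in a fit across all genes (limma). LMNA and BANF1 did not pass. In the same fit 36.0% of the 11685 genes tested passed, 19.8% as lower and 16.3% as higher, and since the genes were picked with this comparison known, nothing is read from the 5 lower and 1 higher. Leaving out ANKRD9 replicate 2 brought the count of genes called higher to 1255, from 1900 with all libraries. The 3 values of the ANKRD9 group lay wholly below those of the vector group for the same 5 genes and wholly above them for SUN2. Among all genes tested the groups failed to overlap for 50.6%, below for 26.9% and above for 23.7%. The median log2 difference was -0.22 over the 8 genes and -0.01 over all genes tested. Of the 8 differences 7 were negative, LMNA and BANF1 included, as were 5965 of the 11685 over all genes tested. All 8 genes passed the filter on low values, a mean of at least 1 FPKM, in both groups taken alone.

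**Figure D1:**
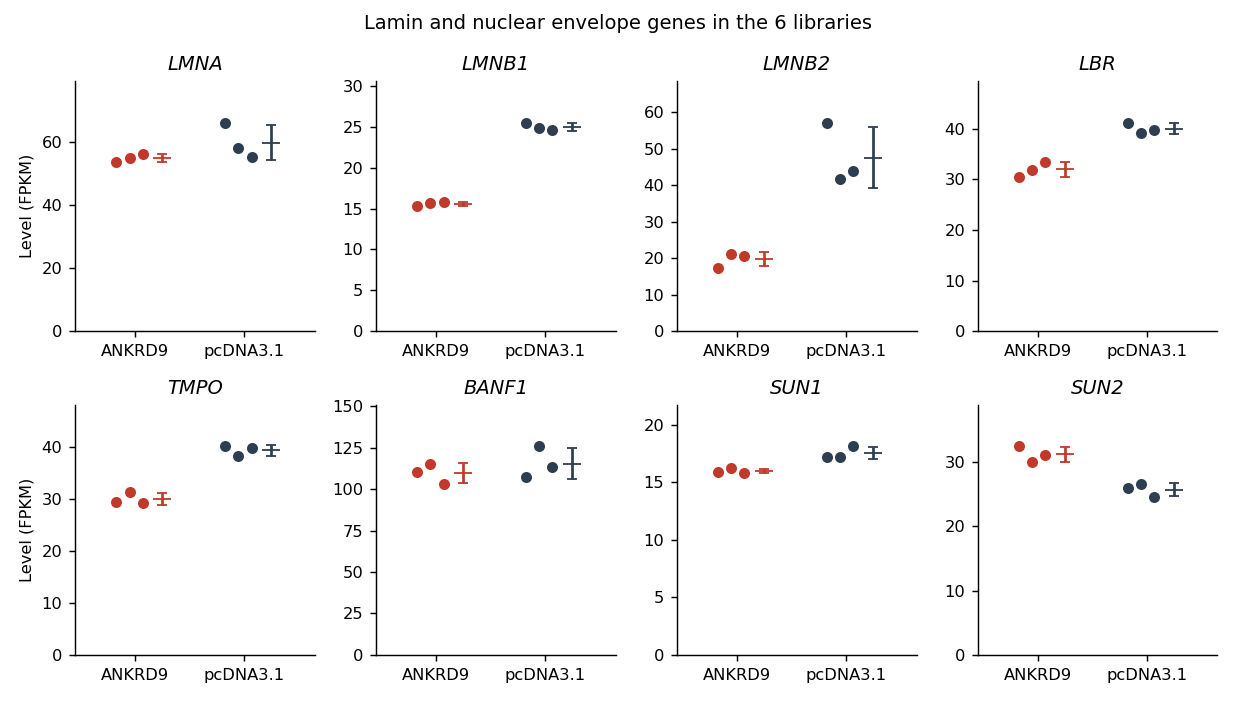
Level of each of the 8 genes in FPKM, in 1 panel per gene with its own axis from 0, for the ANKRD9 libraries (left in each panel) and the pcDNA3.1 libraries (right); each point is 1 library, and the bar beside the points is the mean ± SD (n = 3). LMNB2 shows the widest gap, at 17.4 to 21.2 FPKM with ANKRD9, against 41.7 to 57.1 FPKM with the vector, while the points of LMNA and BANF1 overlap between the groups.

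LMNB2 encodes lamin B2, a B-type lamin (chromosome 28: 731208-757045, minus strand, GRCg6a). It stood at 17.4, 21.2 and 20.7 FPKM in the ANKRD9 libraries, against 57.1, 41.7 and 43.8 FPKM in the vector libraries. The groups did not overlap, and vector replicate 1 stood above the other vector libraries. The mean was 19.8 ± 2.04 FPKM with ANKRD9, against 47.5 ± 8.38 FPKM with the vector (SD, n = 3 each), which is 41.6% of the vector level. The log2 difference was -1.22 ± 0.12 (SE), the 8th from the largest fall among the genes tested. Without vector replicate 1 it was -1.08. The values rested on 693 to 932 reads per ANKRD9 library and 1850 to 2283 per vector library. Its coefficient of variation between libraries, 10.3% with ANKRD9 and 17.6% with the vector, was above the 3.51% and 2.23% that counting alone gives at these read numbers.

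LMNB1 encodes lamin B1, the other B-type lamin of most vertebrate cells, whose transcript is known to fall in senescent human fibroblasts (chromosome Z: 56417203-56440160, plus strand). It stood at 15.3, 15.6 and 15.8 FPKM in the ANKRD9 libraries, against 25.5, 24.9 and 24.6 FPKM in the vector libraries. The groups did not overlap, and the libraries within each were close together. The means were 15.6 ± 0.224 FPKM with ANKRD9, against 25.0 ± 0.473 FPKM with the vector (SD, n = 3 each), or 62.3% of the vector level, with a log2 difference of -0.65 ± 0.04 (SE). Its variation between libraries, 1.44% with ANKRD9 and 1.89% with the vector, was no larger than the 4.03% and 3.15% that counting gives, unlike that of LMNB2.

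LMNA encodes lamin A (chromosome 25: 677720-702707, minus strand). It stood at 53.7, 55.0 and 56.1 FPKM in the ANKRD9 libraries, against 66.1, 58.0 and 55.4 FPKM in the vector libraries. The highest ANKRD9 value lay above the lowest vector value, so the groups overlapped, and vector replicate 1 was again the highest of the 6. The log2 difference was -0.12 ± 0.07 (SE) and did not pass the fit's threshold, which does not show that the level was the same. The gene model listed for LMNA is 1040 bases long, against 1900 for LMNB1 and 2003 for LMNB2, and its FPKM depends on that length.

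The make-up of the lamin transcripts therefore differed between the groups. Of the FPKM summed over the 3 lamin genes, LMNA held 62.1%, 59.9% and 60.6% in the ANKRD9 libraries, against 44.5%, 46.6% and 44.8% in the vector libraries. LMNB2 held 20.2%, 23.1% and 22.4% with ANKRD9 and 38.4%, 33.4% and 35.4% with the vector. The share of LMNB1 was 17.7%, 17.0% and 17.0% with ANKRD9 and 17.1%, 20.0% and 19.9% with the vector, and its groups overlapped. The sum of the 3 genes was 90.3 ± 3.30 FPKM with ANKRD9, against 132 ± 14.2 FPKM with the vector (SD, n = 3 each). For every LMNB1 transcript, scaled to length, there were 1.27 ± 0.115 of LMNB2 with ANKRD9 and 1.90 ± 0.300 with the vector. These shares do not change with the scaling between libraries, and they carry no test, since the genes were picked on the values that form them. The shares do depend on the listed gene lengths. Of the lamin reads without length scaling, LMNA held 46.6%, 44.2% and 45.0% in the ANKRD9 libraries. In the vector libraries it held 29.7%, 31.6% and 30.0%.

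**Figure D2:**
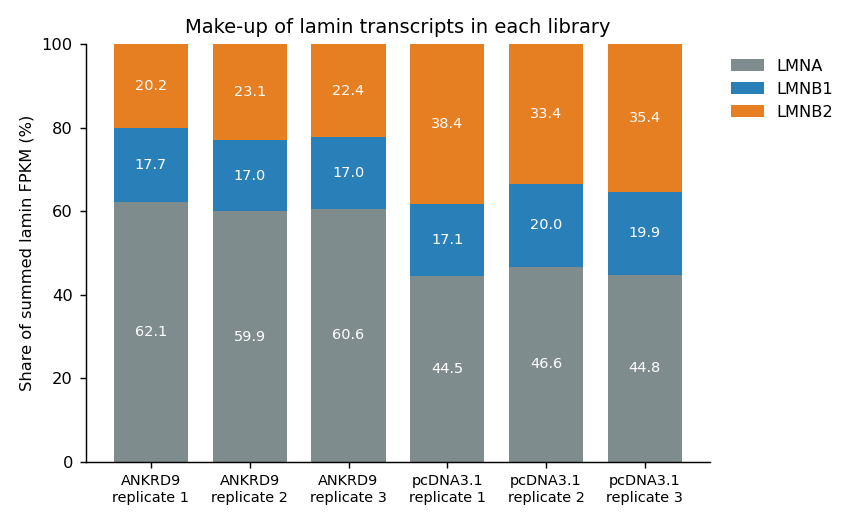
Share of LMNA, LMNB1 and LMNB2 in the summed FPKM of the 3 lamin genes, in percent, with 1 stacked bar per library and the ANKRD9 libraries on the left. The LMNA share is 59.9% to 62.1% in the ANKRD9 libraries and 44.5% to 46.6% in the pcDNA3.1 libraries, and the LMNB2 share is smaller in every ANKRD9 library than in any pcDNA3.1 library.

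LBR and TMPO, both genes of chromatin tethers of the inner membrane, were lower with ANKRD9, by less than the B-type lamins. LBR encodes a protein that binds B-type lamins and heterochromatin protein HP1 and also reduces the sterol C14 double bond in cholesterol synthesis (chromosome 3: 17501865-17522981, plus strand). It stood at 30.5, 31.9 and 33.5 FPKM in the ANKRD9 libraries, against 41.2, 39.1 and 39.9 FPKM in the vector libraries. That is 79.8% of the vector level, with a log2 difference of -0.32 ± 0.05 (SE). TMPO encodes thymopoietin, or lamina-associated polypeptide 2, whose forms bind lamins and BANF1 (chromosome 1: 46668937-46691164, plus strand). It stood at 29.4, 31.3 and 29.2 FPKM in the ANKRD9 libraries, against 40.1, 38.2 and 39.8 FPKM in the vector libraries. This is 76.1% of the vector level, with a log2 difference of -0.38 ± 0.04 (SE). For neither gene did the groups overlap. The table has 1 value per gene, so the forms of TMPO are not told apart.

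BANF1, whose small protein coats DNA and recruits LEM-domain proteins to the reforming envelope after mitosis, stood at 110, 115 and 103 FPKM in the ANKRD9 libraries, against 107, 126 and 113 FPKM in the vector libraries. Its groups overlapped, and the log2 difference was -0.07 ± 0.07 (SE). It was the most abundant of the 8 genes per length in every library. Its listed span shares 389 bases with that of MUS81 on the same strand, a gene with a mean of 153 reads, and the sources used here do not state how reads of such a stretch were assigned.

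The SUN genes differed in opposite directions. SUN2 (chromosome 1: 50808312-50816242, plus strand) stood at 32.4, 30.0 and 31.0 FPKM in the ANKRD9 libraries, against 25.9, 26.5 and 24.5 FPKM in the vector libraries. Every ANKRD9 value was above every vector value, and the log2 difference was 0.27 ± 0.05 (SE). SUN1 (chromosome 14: 2544186-2579319, plus strand) stood at 15.9, 16.2 and 15.9 FPKM in the ANKRD9 libraries, against 17.2, 17.2 and 18.1 FPKM in the vector libraries. The gap between the groups of SUN1 was narrow, its log2 difference was -0.12 ± 0.04 (SE), and it missed the threshold when any single library was left out. SUN1 shares 759 bases of its span with DNAAF5 on the same strand. Both SUN proteins bind nesprins in the space between the nuclear membranes. The ratio of SUN2 to SUN1 was 2.04, 1.85 and 1.96 in the ANKRD9 libraries, against 1.51, 1.54 and 1.35 in the vector libraries.

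The order of the levels per length differed between the groups at LMNB2, LBR, SUN2, LMNB1 and SUN1, while BANF1, LMNA and TMPO kept their places. With ANKRD9 the means ran BANF1 (110 FPKM), LMNA (55.0), LBR (32.0), SUN2 (31.1), TMPO (30.0), LMNB2 (19.8), SUN1 (16.0) and LMNB1 (15.6). With the vector they ran BANF1 (115 FPKM), LMNA (59.9), LMNB2 (47.5), LBR (40.1), TMPO (39.4), SUN2 (25.7), LMNB1 (25.0) and SUN1 (17.5). With ANKRD9 the libraries of LBR and SUN2 overlapped, as did those of SUN2 and TMPO. With the vector those of LMNA and LMNB2, of LBR and TMPO, and of SUN2 and LMNB1 overlapped. The other neighbours in each order did not. The place of LMNA rests on its listed length of 1040 bases. By reads it stood below LMNB2 in each vector library, at 1215 to 1380 reads, against 1850 to 2283 for LMNB2. In each ANKRD9 library it had more reads than LMNB2.

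Among the tested genes with a proper symbol, those whose pattern over the 6 libraries lay nearest to that of LMNB2 were matrix genes. Genes listed with a placeholder name or none were not ranked. Likeness was measured as the distance between log2(FPKM + 1) values after each gene's own mean was taken off, so that size and library pattern both count. The nearest was MXRA5, a matrix protein gene, at a distance of 0.20 and with 7.67 ± 0.822 FPKM with ANKRD9, against 18.9 ± 2.66 FPKM with the vector (SD, n = 3 each). Next came LOX, the gene of the collagen cross-linking enzyme lysyl oxidase, at 0.38, and the collagen gene COL3A1, at 0.43. In MXRA5 and LOX, as in LMNB2, vector replicate 1 was the highest library, at 21.9 and 21.9 FPKM. For LMNB1 the nearest were DVL1, a WNT signalling gene, at 0.05, the matrix gene OLFML2B at 0.05, and RGL1 at 0.07. For LMNA they were the RNA polymerase I gene POLR1B at 0.04, the nuclear receptor gene NR1D2 at 0.04 and ZMAT3 at 0.06. These genes were picked for likeness in the 6 libraries, so their own differences carry no test.

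**Figure D3:**
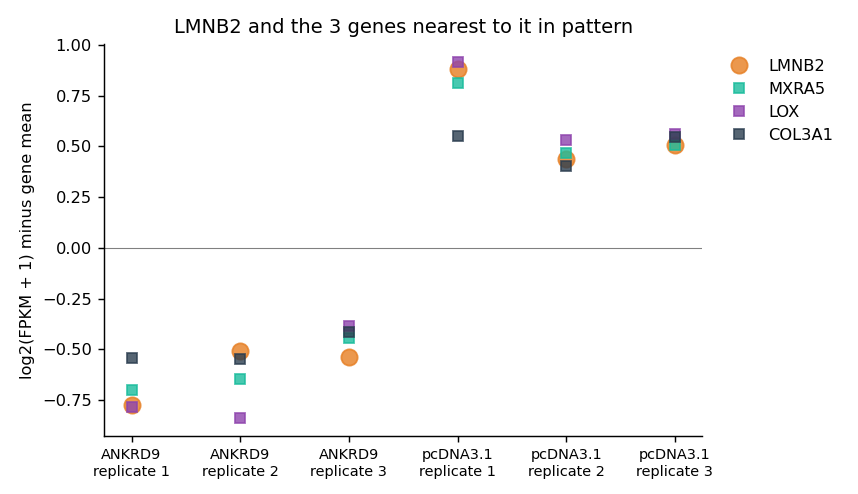
Values of LMNB2 (circles) and of MXRA5, LOX and COL3A1 (squares) in each library, as log2(FPKM + 1) minus the gene's mean over the 6 libraries, with the ANKRD9 libraries on the left. All 4 genes lie below 0 in the ANKRD9 libraries and above 0 in the pcDNA3.1 libraries, and LMNB2 runs from -0.78 in ANKRD9 replicate 1 to 0.88 in pcDNA3.1 replicate 1. MXRA5, LOX and COL3A1 were picked for their likeness to LMNB2, so the shared signs follow from that choice.

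Genes that act on or beside these proteins were described by list. All lists, the marker lists included, were chosen with earlier results of these data known, so their counts and calls are a description. Of 17 further inner membrane, nesprin, torsin and lamin genes, 12 were matched by symbol and tested. The further lamin gene sought, LMNB3, was not matched. Of the 12, 4 fell, 1 rose and 7 did not pass, beside 19.8% lower and 16.3% higher among all genes tested. The falls included the nesprin genes SYNE3 and SYNE2, whose proteins are the cytoplasmic partners of SUN proteins. SYNE3 stood at 2.80 ± 0.153 FPKM with ANKRD9, against 3.98 ± 0.374 FPKM with the vector, a log2 difference of -0.39 ± 0.07 (SE; limma, adjusted p = 0.00655). SYNE2 stood at 3.04 ± 0.173 FPKM with ANKRD9, against 4.29 ± 0.501 FPKM with the vector, a log2 difference of -0.38 ± 0.08 (limma, adjusted p = 0.00954). The nesprin gene SYNE1 did not pass (log2 difference -0.16 ± 0.07, limma, adjusted p = 0.119). It stood at 1.85 ± 0.112 FPKM with ANKRD9, against 2.19 ± 0.160 FPKM with the vector. NEMP2 and TMEM201, genes of inner membrane proteins, fell by 0.27 and 0.22 on the log2 scale (limma, adjusted p = 0.0107 and 0.0182). The call of TMEM201 was lost without ANKRD9 replicate 1 or 2 (adjusted p = 0.0601 and 0.0607). The 1 gene that rose was TOR1AIP1, a torsin activator of the inner membrane chosen for naming after its value was seen, at 0.14 (adjusted p = 0.0457), and it lost its call when any single library was left out. The LEM-domain genes LEMD2 and LEMD3 did not pass. LEMD2 stood at 18.4 ± 1.12 FPKM with ANKRD9, against 18.6 ± 1.25 FPKM with the vector, and LEMD3 at 15.8 ± 0.242 FPKM with ANKRD9, against 14.8 ± 0.279 FPKM with the vector. The median log2 difference of the 12 was -0.03.

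Of 14 lamin maturation and envelope phosphorylation genes tested, 2 were lower, 3 were higher and 9 did not pass, with a median log2 difference of 0.03. Among all genes tested 19.8% were lower and 16.3% higher. Of the enzymes that process the lipid-bearing end of lamins after farnesylation, ZMPSTE24, the protease that cuts prelamin A, rose to 58.8 ± 1.84 FPKM with ANKRD9, against 49.2 ± 2.41 FPKM with the vector (log2 difference 0.25 ± 0.05, limma, adjusted p = 0.00579). ICMT, the methyltransferase of the same pathway, rose to 29.6 ± 1.09 FPKM with ANKRD9, against 25.7 ± 0.892 FPKM with the vector (log2 difference 0.19 ± 0.05, limma, adjusted p = 0.0140), and narrowly lost its call without ANKRD9 replicate 1 or 2 (adjusted p = 0.0504 and 0.0524). The farnesyltransferase genes FNTA and FNTB did not pass. FNTA stood at 16.7 ± 1.11 FPKM with ANKRD9, against 15.9 ± 0.733 FPKM with the vector, and FNTB at 44.6 ± 1.09 FPKM with ANKRD9, against 48.3 ± 2.63 FPKM with the vector. VRK1, the kinase that frees BANF1 from DNA at mitosis, fell by 0.22 ± 0.05 on the log2 scale to 9.65 ± 0.326 FPKM (limma, adjusted p = 0.0121). CDCA2, which brings a phosphatase to mitotic chromatin, fell to 1.40 ± 0.0744 FPKM with ANKRD9, against a mean of 2.37 FPKM with the vector. That is 59.2% of the vector level. The log2 difference of CDCA2 was -0.49 ± 0.07 on log2(FPKM + 1) values (limma, adjusted p = 0.00206), which understates the fall at this low level. With 0.1 added to the FPKM in place of 1 it was -0.72. VRK2, chosen for naming after its value was seen, rose by 0.21 ± 0.05 to 11.1 ± 0.605 FPKM (limma, adjusted p = 0.0195). The call of VRK2 was lost without ANKRD9 replicate 1 or 2 (adjusted p = 0.0603 and 0.0508), and without ANKRD9 replicate 2 only ZMPSTE24 of the 3 was called higher.

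Of the 11 genes of the ESCRT-III machinery that seals the reforming envelope, 3 fell, 2 rose and 6 did not pass, beside 19.8% lower and 16.3% higher among all genes tested. CHMP4C fell to 16.8 ± 0.300 FPKM with ANKRD9, against 24.5 ± 0.162 FPKM with the vector (log2 difference -0.52 ± 0.04, limma, adjusted p = 1.77e-04). CHMP6 fell by 0.30 ± 0.07 (adjusted p = 0.0118, limma) and VPS4B by 0.13 ± 0.04 (adjusted p = 0.0364, limma), a call that was lost when any single library was left out. IST1 rose by 0.20 ± 0.03 (limma, adjusted p = 0.00414). The other gene that rose was CHMP4B, chosen for naming after its value was seen, by 0.17 ± 0.05 (limma, adjusted p = 0.0383), and its call was lost when any library other than vector replicate 2 was left out. CHMP7, which the LEMD2 protein recruits to the envelope, stood at 33.1 ± 0.174 FPKM with ANKRD9, against 33.3 ± 1.36 FPKM with the vector and did not pass (limma, adjusted p = 0.883). The list's median was -0.01 on the log2 scale, the same as that of all genes to 2 decimals.

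The nuclear pore genes that passed were all lower. Of 31 nucleoporin genes, 26 were matched and tested, and 20 of their log2 differences were negative, with a median of -0.11. Among all genes tested, 5965 of 11685 log2 differences were negative, with a median of -0.01. In the fit 10 fell, none rose and 16 did not pass. That is 10 of 26 lower and none higher, against 19.8% lower and 16.3% higher among all genes tested. NDC1, whose protein anchors the pore in the membrane, fell to 14.1 ± 0.123 FPKM with ANKRD9, against 18.8 ± 0.822 FPKM with the vector (log2 difference -0.39 ± 0.04, limma, adjusted p = 8.29e-04). The scaffold genes NUP205 and NUP93 fell by 0.33 ± 0.06 and 0.23 ± 0.04 (limma, adjusted p = 0.00404 and 0.00532), and the membrane nucleoporin gene NUP210 fell by 0.35 ± 0.07 (adjusted p = 0.00757). NUP153, whose protein binds lamins at the nuclear basket, stood at 18.8 ± 0.688 FPKM with ANKRD9, against 18.3 ± 1.15 FPKM with the vector and did not pass (limma, adjusted p = 0.630).

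Of 5 chromatin partners, 2 were lower and none higher, against 19.8% and 16.3% of all genes tested. None of the genes of the HP1 proteins that LBR binds passed, with CBX5 at 49.0 ± 1.54 FPKM with ANKRD9, against 54.1 ± 4.70 FPKM with the vector. HDAC3, a histone deacetylase bound by LEM-domain proteins, fell by 0.22 ± 0.06 on the log2 scale, and the retinoblastoma gene RB1 by 0.27 ± 0.07 (limma, adjusted p = 0.0223 and 0.0241). Both calls were lost without ANKRD9 replicate 1 (adjusted p = 0.0744 and 0.0780) and without ANKRD9 replicate 2 (adjusted p = 0.0522 and 0.0697). Of 5 cholesterol enzyme genes around the sterol step of LBR, 4 fell, where 19.8% of all genes tested did, and SC5D did not pass, at 36.4 ± 1.94 FPKM with ANKRD9, against 37.0 ± 1.47 FPKM with the vector. MSMO1 and DHCR7 fell by 0.36 ± 0.05 and 0.19 ± 0.04 (limma, adjusted p = 0.00160 and 0.0116). CYP51A1 fell by 0.12 ± 0.04 (limma, adjusted p = 0.0374), a call lost in 5 of the 6 fits that left out 1 library. LBR, at -0.32, lay within the range of these genes.

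**Figure D4:**
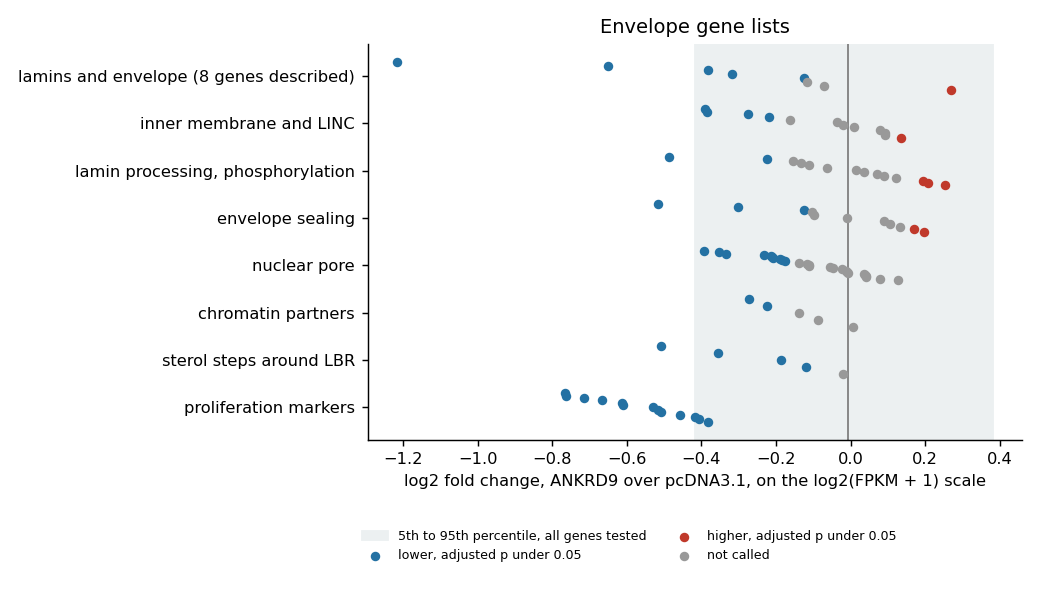
Log2 fold change of ANKRD9 over pcDNA3.1, on the log2(FPKM + 1) scale, with 1 point per tested gene for the 8 genes described and 7 lists of related genes; blue points were lower and red points higher at an adjusted p under 0.05 (limma), grey points were not called, the shaded band runs from the 5th to the 95th percentile of all genes tested and the line is their median. LMNB2, at -1.22, lies left of every other point shown, the proliferation markers lie between -0.76 and -0.38, and SUN2, at 0.27, is the point farthest to the right.

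Markers of dividing cells, a list also chosen with earlier results of these data known, were lower with ANKRD9. Of 13 proliferation genes tested, all 13 fell, against 19.8% of all genes tested, with a median log2 difference of -0.53. Beside it, the envelope genes stood at -1.22 for LMNB2, -0.65 for LMNB1, -0.38 for TMPO, -0.32 for LBR, -0.12 for SUN1 and for LMNA, -0.07 for BANF1 and 0.27 for SUN2. The mitotic kinase gene PLK1 fell to 25.9 ± 0.326 FPKM with ANKRD9, against 44.6 ± 1.42 FPKM with the vector (limma, adjusted p = 6.93e-05), and BUB1, CCNA2 and the row named AURKA fell by 0.72, 0.61 and 0.76 on the log2 scale, with adjusted p between 1.24e-04 and 1.77e-04 (limma). The gene identifier of that last row belongs to AURKB in the RefSeq table, so which Aurora kinase it reports is unsettled. Likewise, the row named CCNB2, counted among the 13, has the identifier of CCNB1 there. The summed level of the 13 was 548 to 571 FPKM with ANKRD9, against 794 to 833 FPKM with the vector. The difference of LMNB2 was larger than that of any of them. The part of cell division in the values of the envelope genes was not tested.

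Markers of other cells that a leg muscle culture can hold moved as well. Of 6 fibroblast markers, 5 were lower, against 19.8% of all genes tested. The summed level of all 6 was 1290 to 1383 FPKM with ANKRD9, against 1677 to 1708 FPKM with the vector. Most of that gap came from COL1A1, at 347 ± 14.2 against 523 ± 19.5 FPKM, and COL1A2, at 195 ± 4.46 against 311 ± 19.5 FPKM. PDGFRA, LUM and THY1 were also lower, THY1 by 0.12 on the log2 scale. DCN, the most abundant, did not pass (limma, adjusted p = 0.150), at 668 ± 28.0 FPKM with ANKRD9, against 720 ± 31.7 FPKM with the vector. Of 5 leukocyte markers tested, 4 were higher, against 16.3% of all genes tested, and the summed level of all 6 listed was 58.6 to 66.4 FPKM with ANKRD9, against 35.9 to 38.3 FPKM with the vector. Most of that sum came from the row named NCF1, at 41.7 ± 2.00 FPKM with ANKRD9, against 24.3 ± 0.518 FPKM with the vector, whose gene identifier belongs to NCF1C in the RefSeq table. The defining leukocyte marker PTPRC stood at 1.85 to 2.46 FPKM with ANKRD9, against 1.63 to 1.94 FPKM with the vector, and did not pass (limma, adjusted p = 0.122). Besides the NCF1 row, SPI1, CD3E and RAC2 were called higher (limma, adjusted p = 0.00219, 0.00862 and 0.0409), and CSF1R was not tested. CD3E stood at 3.64 ± 0.658 FPKM with ANKRD9, against 1.51 ± 0.599 FPKM with the vector. The 4 endothelial markers summed to 6.95 to 7.62 FPKM with ANKRD9, against 6.37 to 7.35 FPKM with the vector, a sum in which members differed in both directions. TEK was lower (limma, adjusted p = 0.00243) and PECAM1 higher (adjusted p = 0.0117), while CDH5 and KDR had means under 1 FPKM and were not tested, with CDH5 at 0.201 ± 0.0754 FPKM with ANKRD9, against 0.455 ± 0.0372 FPKM with the vector, and KDR at 0.373 ± 0.0903 FPKM with ANKRD9, against 0.135 ± 0.0338 FPKM with the vector. No marker of these lists was at 0 in any library. In bulk RNA, fewer cells of a type and less RNA per cell cannot be told apart, and the part of the cell make-up in the values of the lamin genes was not tested. Of 6 muscle differentiation markers 4 were tested and none passed (limma, adjusted p between 0.132 and 0.292), where 36.0% of all genes tested did. All 4 log2 differences were positive, from 0.10 to 0.34 with a median of 0.21, where 5965 of the 11685 genes tested had a negative one. The summed level of the 5 markers matched was 292 to 353 FPKM with ANKRD9, against 257 to 318 FPKM with the vector.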

How the data were processed

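RNA sequencing of 6 libraries was used, 3 with ANKRD9 and 3 with pcDNA3.1. The deposited values are FPKM per gene in 1 table, per the file headers. CASAVA and the build GRCg6a, also called galGal6, are named in the submitters' processing notes. The sources used here name no aligner, counting program or strand setting. Multiplied by gene length, the deposited FPKM were whole multiples of a single step for 100% of values, within a tolerance of 0.01, which gives the reads per gene, although reads need not be separate molecules.

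The test was that of limma 3.58.1 (R 4.3.3), fitted to log2(FPKM + 1) by group alone, with a mean trend. It covered the 11685 of 24433 genes whose mean reached 1 FPKM, and Benjamini-Hochberg adjustment ran over all of them, with a threshold of 0.05. With this pseudocount the differences of low genes are understated. The procedure was tested on simulated data in which all genes had the same spread beyond counting. That test does not cover genes that vary between libraries as much as LMNB2.

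The genes described and the lists were chosen with earlier results of these data known. Lists were matched by exact symbol, and unmatched genes were not analysed here. Named genes are the 8, ANKRD9, and up to 4 called genes of smallest adjusted p per list. Also named are the 3 genes nearest in pattern to each lamin gene, among tested genes with a proper symbol. A gene that this rule takes is not reported here. Members that did not pass and were named for their role, as well as cell markers, were added after their values were seen. Chromosome names come from RefSeq's table (GRCg7b), coordinates from the deposited table. Promoter and protein sequences were not used here, so a planned motif search was not run.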

Additional observations from a re-analysis of the deposited data

How the results depend on the processing

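The 8 genes kept their direction in all 14 alternatives: another pseudocount, 2 other filters, 2 other scalings, a replicate block, reads in place of FPKM, no trend, and each library left out. The 2 other filters, the replicate block and the fit without a trend leave each log2 difference as it was. Only the adjusted p can move in them, so they are no check of direction or size. LMNB2 ran from -1.25 to -1.21 on the log2 scale over the settings that kept all libraries, and from -1.30 to -1.08 with 1 library left out. LMNB1 moved to -0.68 with a pseudocount of 0.1. For BANF1 and LMNA, which were not called, the kept direction says little. With 1 library left out BANF1 ran from -0.12 to -0.01 and LMNA from -0.17 to -0.04. SUN1 was called only as reported, with a pseudocount of 0.1 and with a mean of at least 5 FPKM, and LMNB2, LMNB1, TMPO, LBR and SUN2 were called in every alternative. These calls reuse values that were known when the genes were picked, so they support nothing. The difference in LMNA share, 15.6 percentage points, was 14.8 on reads without length scaling and 15.0 to 16.3 with 1 library left out. The share itself was lower on reads in both groups, at a mean of 45.3% with ANKRD9 and 30.4% with the vector.

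Same-numbered libraries did not deviate together (correlations of -0.20, 0.03 and -0.08). With 3 libraries per group this gives no sign of pairing but cannot exclude it. With the replicate block, lower chromatin partners came to 1, higher sealing genes to 1, higher inner membrane genes to 0, and SUN1, RB1, TMEM201, TOR1AIP1, CHMP4B, VRK2, VPS4B and CYP51A1 lost their calls.

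Small counts shifted elsewhere too. Without a filter, chromatin partners lower came to 1, sealing genes higher to 1 and inner membrane genes higher to 0. Without a trend the last 2 were 1 and 0, and with quantile normalization 4 and 2. On reads, 3 inner membrane genes and 1 nucleoporin were higher. With a mean of at least 5 FPKM, 2 inner membrane genes and 1 processing gene were lower. The cause was not tested, apart from the smaller number of genes that this last filter keeps. With 1 library left out, chromatin partners lower ran from 0 to 2, sealing genes higher from 1 to 2, inner membrane genes higher were 0, processing genes higher ran from 1 to 3, and genes called across the table ran from 1255 to 1764 higher and from 1577 to 2146 lower. In 486 refits of the 35 other named genes that were called, 50 lost the call and none changed direction. Refits with another filter, the replicate block or no trend could not change a direction. Most of these genes were taken for a small adjusted p or for likeness to a lamin gene in these data. The counts of refits therefore follow in part from that choice.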
